A study of Rattus norvegicus with 4 samples.

Results

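CLU, CST3, ENPP2, IGF2, IGFBP2 and PTGDS encode proteins that are released into the cerebrospinal fluid (CSF). These 6 genes were chosen by name from the paper's supplementary list of transcribed genes, which pairs names with gene IDs, and are 6 of the 32883 gene IDs in each table, of which 2452 have a name. The levels were compared between 4 libraries, all from Sprague Dawley rats of 9 weeks without a treatment or an altered gene in the labels. The libraries were whole choroid plexus from a pool of 5 male rats, whole choroid plexus from a pool of 5 female rats, choroid plexus epithelial cells sorted by flow cytometry (FACS) with an antibody against the cotransporter NKCC1 from a pool of 10 male rats, and kidney proximal tubules from a pool of 5 male rats, collected after enzymatic digestion of the kidney. As the methods are worded, the kidneys came from the male rats whose choroid plexus was pooled. The sorted cells had also been through a digestion that the whole tissue had not. Each condition has 1 library and no replicates, so the differences given here could not be set against a spread between pools or rats.

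The choroid plexus is a sheet of epithelium around a vascular core, and besides secreting the fluid of the ventricles it releases proteins into it. IGF2 is an insulin-like growth factor and IGFBP2 a binding protein that holds such factors in solution. ENPP2, also called autotaxin, makes the signalling lipid lysophosphatidic acid, PTGDS makes prostaglandin D2 and also carries small lipids as a lipocalin, CST3 (cystatin C) inhibits cysteine proteases, and CLU (clusterin) is an extracellular chaperone that travels with lipoproteins.

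The expected counts, which are RSEM's estimate of the reads of each gene, summed to between 23873318 and 28324976 per library. The 13 mitochondrially encoded genes held between 4.32 and 5.34% of them in the 3 choroid plexus libraries and 70.7% in the proximal tubule library, which left 7352952 counts there. Levels are given in TPM, the transcript abundance that RSEM scales for gene length to a sum of 1000000 in each library. The expected count of each of the 6 genes was a whole number in every library. The strandedness of the libraries is not given in the sources used here. In RefSeq's GRCr8 annotation, which is a later build than the one the authors used, Igf2 overlaps Mir483 and 1 uncharacterised gene and lies next to Ins2, and Clu overlaps Scara3 and a pseudogene, so reads from those could not be told apart from theirs if the counting ignored strand.

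The bases in front of the start site are shown for the genes with an entry in the RefSeq promoter table (GRCr8), because they stand in front of 4 of the 6 genes, each among the 28 highest of the choroid plexus. The files do not show which of the starts of Igf2 was used. Each line gives the 160 bases before the start, 5′ to 3′ on the gene's strand, and capitals mark each GC box (GGGCGG, or CCGCCC on the other strand).
Igf2, first entry (chr1:207253981-207254140, minus strand): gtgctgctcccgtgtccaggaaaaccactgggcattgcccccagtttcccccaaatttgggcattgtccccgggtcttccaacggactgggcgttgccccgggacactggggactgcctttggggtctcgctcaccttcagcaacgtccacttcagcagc
Igf2, second entry (chr1:207250476-207250635, minus strand): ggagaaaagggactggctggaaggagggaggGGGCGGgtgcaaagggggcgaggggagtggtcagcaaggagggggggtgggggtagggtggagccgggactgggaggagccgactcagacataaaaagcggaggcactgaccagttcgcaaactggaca
Igfbp2 (chr9:81864651-81864810, plus strand): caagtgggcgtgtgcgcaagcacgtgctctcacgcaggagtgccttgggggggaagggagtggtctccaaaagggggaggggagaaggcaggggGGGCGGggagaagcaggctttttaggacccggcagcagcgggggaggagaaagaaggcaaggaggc
Ptgds (chr3:28682979-28683138, minus strand): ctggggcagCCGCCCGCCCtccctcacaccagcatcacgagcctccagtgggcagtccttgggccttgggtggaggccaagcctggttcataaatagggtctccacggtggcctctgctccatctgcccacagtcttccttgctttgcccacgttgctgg
Cst3 (chr3:156793938-156794097, minus strand): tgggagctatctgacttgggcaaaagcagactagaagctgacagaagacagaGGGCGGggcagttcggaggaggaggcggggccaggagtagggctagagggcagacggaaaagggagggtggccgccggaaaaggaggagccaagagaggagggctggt
GC boxes were present in 4 of these 5 stretches, and in PTGDS 2 of them overlapped, whereas the first Igf2 entry had none. Of all 33469 promoters in the table, 26.6% held a GC box in the same stretch. The share of G and C was 61.9% in Cst3 and in the first Igf2 entry, 63.8% in Ptgds, 64.4% in the second Igf2 entry and 65.6% in Igfbp2, against a median of 52.5% over all promoters and quartiles of 45 and 61.9%. Neither the TATA box letters TATAAA, searched on the gene's strand, nor the core letters TAATCC of the OTX2 motif, searched on both strands, were found in the 250 bases before any of the 5 starts. Of all promoters, 8.06% held the former and 6.34% the latter in 250 bases. These counts describe letters in a window, not binding.

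The 6 genes together made up 64885 TPM in the male choroid plexus, which was 6.49% of the library. They made up 73426 TPM in the female choroid plexus and 77867 TPM in the FACS epithelial cells, that is 7.34 and 7.79%, and 3.09 TPM in the proximal tubule. CST3 alone accounted for 51.5% of the sum in the male, 59.7% in the female and 57.4% in the FACS library. In each of the 3 choroid plexus libraries, all 6 genes were among the 28 highest by TPM. In a bulk library, fewer cells of a type and less RNA per cell cannot be told apart, and TPM is a share of a fixed total, in which TTR (transthyretin) took 238565 TPM in the male, 285892 in the female and 389655 in the FACS library. Without TTR in the total, the 6 genes held 8.52, 10.3 and 12.8%.

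**Figure D1:**
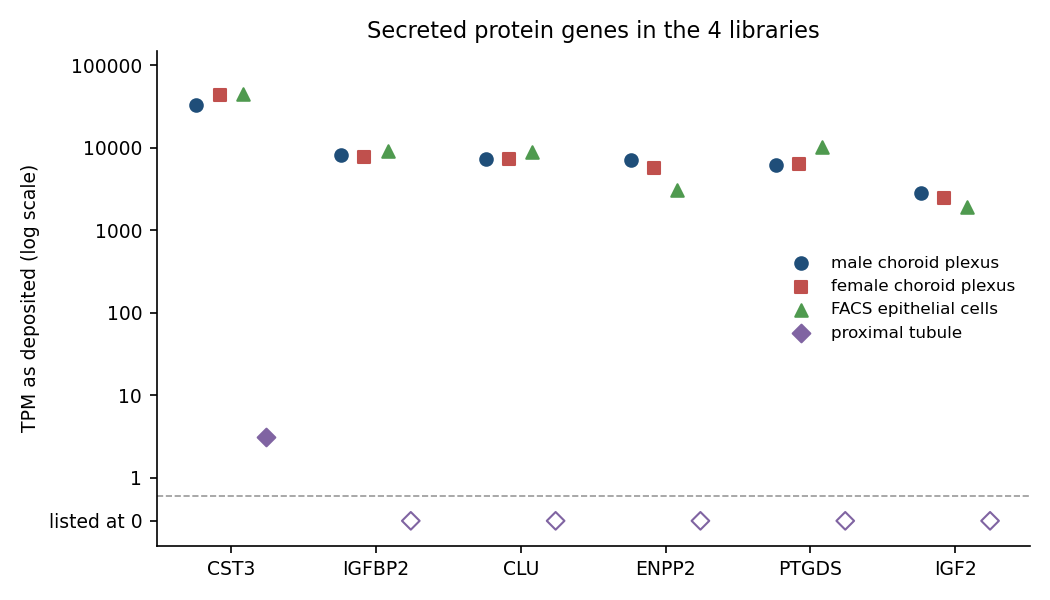
Level of each of the 6 genes in TPM as deposited (vertical axis, log scale) in the 4 libraries, with 1 point per library and no replicates. CST3 lies above the other 5 genes in each choroid plexus library, between 33410 and 44671 TPM, and 5 of the 6 genes are listed at 0 in the proximal tubule, drawn as open symbols under the dashed line.

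Ratios between libraries were taken on the log2 scale of TPM plus 1, over all genes at 0.5 TPM or above in either library. Set against whole male tissue, 1 of the 6 genes in the FACS library (ENPP2) was lower by a factor of 2 or more and 0 were higher, while 25.5% of the 14024 genes tested were lower and 4.61% were higher by that factor. The median log2 ratio was 0.22 over the 6 genes and -0.58 over all genes tested, and 4 of the 6 lay above 0 against 21.8% of all genes. Between the whole tissue of female and male rats, 0 of the 6 genes passed a factor of 2 in either direction, where 0.44% of 13869 genes were higher and 0.959% were lower. The median log2 ratio there was -0.03 over the 6 genes and -0.16 over all genes tested. Ratios relative to these medians of all genes are given beside the ratios as deposited, since the choice between them moves every gene of a comparison by the same amount. On the relative scale, 10.9% of the genes tested between FACS and male were higher by a factor of 2 or more and 6.03% were lower. The balance of higher and lower genes thus turned for all genes as well.

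Among the growth factor genes, IGF2 (ENSRNOG00000020369) had 2848 TPM from 227050 expected counts in the male choroid plexus, 2484 TPM from 194875 in the female and 1919 TPM from 161829 in the FACS epithelial cells. By TPM it was the lowest of the 6 genes in all 3 libraries and ranked 24, 26 and 28 among all genes. By expected count, which is not per length, PTGDS was the lowest in all 3. IGF2 held 0.802% of the counts in the male (95% Wilson interval 0.798 to 0.805%) and 0.678% in the FACS library (0.675 to 0.681%). Intervals of this kind cover counting error only. IGF2 was 1.48-fold lower in the FACS library as deposited, a log2 ratio of -0.57, but 0.01 relative to all genes and 0.07 relative to genes of similar length, so its direction depended on the scale. In the female library its log2 ratio was -0.20 as deposited and -0.04 relative to all genes.

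IGFBP2 (ENSRNOG00000016957) had 8158 TPM from 201496 expected counts in the male choroid plexus, 7698 TPM from 186293 in the female and 9123 TPM from 235533 in the FACS epithelial cells. Its log2 ratio of FACS to male was 0.16 as deposited and 0.74 relative to all genes. Its ratio of female to male was -0.08 as deposited and 0.07 relative to all genes, so that the direction turned with the scale. By TPM, transcripts of the binding protein exceeded those of the ligand in each choroid plexus library. By expected count, IGF2 stood above IGFBP2 in the male and the female. IGFBP2 had 2.86 times the TPM of IGF2 in the male, 3.1 times in the female and 4.76 times in the FACS library.

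Of 12 further genes of the IGF axis, 5 had a name. IGFBP7, which binds such factors weakly, had 365 TPM in the male, 340 in the female and 559 in the FACS library, and IGFBP4, another binding protein, had 59.4, 56.3 and 106. IGFBP5, the neighbour of IGFBP2 in the RefSeq annotation, had 58.3, 35.9 and 44.8 TPM. The receptors were lower, with INSR at 24.2 TPM in the male and 9.93 in the FACS library and IGF1R at 9.89 and 2.52. Both receptors were thus lower by a factor of 2 or more in the FACS library as deposited and 0 of the 5 genes were higher, whereas relative to all genes 2 were higher (IGFBP4 and IGFBP7) and 1 was lower (IGF1R). Over all genes tested, 25.5% were lower and 4.61% higher as deposited, and 6.03 and 10.9% relative to their median. The median log2 ratio of the list was -0.37 as deposited and 0.21 relative to all genes, and in the female library it was -0.20 and -0.04 with 0 genes past a factor of 2.

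Of the enzymes, ENPP2 (ENSRNOG00000004089) had 7053 TPM from 400949 expected counts in the male choroid plexus, 5684 TPM from 317167 in the female and 3039 TPM from 182395 in the FACS epithelial cells. It was highest in the whole male tissue and lowest in the sorted cells, and its rank among all genes went from 11 in the male to 13 in the female and 20 in the FACS library. Its share of the counts was 1.42% in the male (1.41 to 1.42%), 1.25% in the female and 0.764% in the FACS library (0.761 to 0.768%). The FACS level was 2.32-fold below the male level as deposited, a log2 ratio of -1.21, and -0.63 relative to all genes, where it no longer passed a factor of 2. Of all genes tested, 16% had a lower ratio than ENPP2, and of 3746 genes of similar length 24.7% were lower by a factor of 2 or more. The female level was 1.24-fold below the male level, with a log2 ratio of -0.31 as deposited and -0.16 relative to all genes.

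The product of ENPP2 acts on lysophosphatidic acid receptors and is broken down by lipid phosphatases, and 5 of 9 genes of this list had a name. The phosphatase PLPP3 had 64.3 TPM in the male, 52.1 in the female and 62.0 in the FACS library. The highest of the receptors, LPAR6, had 10.5, 8.42 and 9.02 TPM, LPAR3 had 5.32, 5.34 and 2.53, and LPAR1 had 0.99, 0.78 and 1.38. LPAR2 went from 1.24 TPM (52 expected counts) in the male to 0.17 TPM (8 counts) in the FACS library, a low level at which the pseudocount holds the ratio down. Thus 0 of the 5 passed a factor of 2 in the FACS library or in the female library, and the median log2 ratio of FACS to male was -0.20 as deposited and 0.38 relative to all genes. Over the female and male libraries it was -0.16 and -0.00.

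PTGDS (ENSRNOG00000015550) had 6204 TPM from 78138 expected counts in the male choroid plexus, 6392 TPM from 78618 in the female and 10349 TPM from 133988 in the FACS epithelial cells. The female and male levels lay close together and the FACS level stood above both, and its rank went from 13 in the male and 10 in the female to 4 in the FACS library. The FACS level was 1.67 times the male level, a log2 ratio of 0.74 as deposited, and 93.4% of all genes tested had a lower ratio. Relative to all genes the ratio was 1.32 and relative to genes of similar length 1.14, past a factor of 2. The log2 ratio of female to male was 0.04 as deposited and 0.20 relative to all genes.

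Of 17 further genes for prostaglandin synthesis, breakdown and reception, 6 had a name. PTGES3, a prostaglandin E synthase that also serves as a cochaperone, had 99.5 TPM in the male, 90.0 in the female and 60.6 in the FACS library. The reductase PTGR2 had 69.0 and 70.7 TPM in the whole tissue and 29.0 TPM in the FACS library, and was the single gene of the list past a factor of 2 as deposited, being lower. Relative to all genes 0 were lower and 2 were higher, PTGER4 and PTGIR, both at low levels. The shares over all genes tested were 25.5% lower and 4.61% higher as deposited, and 6.03 and 10.9% relative to their median. The receptors PTGER1, PTGER4, PTGIR and TBXA2R had between 0.75 and 7.51 TPM in the male choroid plexus. The median log2 ratio of FACS to male was -0.07 as deposited and 0.51 relative to all genes, and that of female to male -0.14 and 0.01, with 0 genes past a factor of 2 between the sexes.

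CST3 (ENSRNOG00000005195), the protease inhibitor, had 33410 TPM from 419972 expected counts in the male choroid plexus, 43821 TPM from 537917 in the female and 44671 TPM from 577188 in the FACS epithelial cells. It ranked second among all genes in the 3 libraries, after TTR. Its share of the counts was 1.48% in the male (1.48 to 1.49%), 2.12% in the female (2.11 to 2.13%) and 2.42% in the FACS library (2.41 to 2.42%). The female level was 1.31 times the male level, a log2 ratio of 0.39 as deposited and 0.55 relative to all genes, and 97.3% of all genes tested had a lower ratio. The FACS level was 1.34 times the male level, with a log2 ratio of 0.42 as deposited, and it was higher by a factor of 2 relative to all genes. Of the genes tested, 89.1% of genes had a lower ratio. CST3 had the largest ratio of female to male among the 6 genes.

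Of 14 genes for cysteine proteases and other cystatins, 7 had a name, and in the 3 choroid plexus libraries each lay far below the level of CST3. The protease CTSB (cathepsin B) had 777 TPM in the male, 719 in the female and 1008 in the FACS library, and LGMN (legumain) had 313, 299 and 373. CTSZ had 73.6, 75.5 and 161 TPM, and was the single gene of the list past a factor of 2 in the FACS library as deposited, being higher, where relative to all genes 2 were higher. For comparison, 4.61% of all genes tested were higher as deposited and 10.9% relative to their median. CSTB, a cystatin that stays in the cell, had 175, 199 and 105 TPM. The median log2 ratio of FACS to male over the list was 0.36 as deposited and 0.94 relative to all genes, and that of female to male -0.07 and 0.09, with 0 genes past a factor of 2.

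CLU (ENSRNOG00000016460), the chaperone, had 7211 TPM from 241166 expected counts in the male choroid plexus, 7346 TPM from 241069 in the female and 8765 TPM from 308078 in the FACS epithelial cells. The FACS level was 1.22 times the male level, a log2 ratio of 0.28 as deposited and 0.86 relative to all genes. The ratio of female to male was 0.03 as deposited and 0.18 relative to all genes, and it turned to -0.01 with the mitochondrially encoded genes removed. CLU ranked 10 in the male and 8 in each of the other choroid plexus libraries.

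Of 14 further genes for lipoproteins, their receptors and enzymes, 6 had a name. PLTP, which transfers phospholipids between lipoproteins, had 320 TPM in the male, 289 in the female and 417 in the FACS library. APOE, an apolipoprotein that macrophages also make, had 236 and 290 TPM in the whole tissue and 1522 TPM in the FACS library, 6.43 times the male level, and was the single gene of the list past a factor of 2. By that factor, 4.61% of all genes tested were higher as deposited and 25.5% lower. Over the list, the median log2 ratio of FACS to male was 0.06 as deposited and 0.64 relative to all genes. That of female to male was -0.19 and -0.03, with 0 genes past a factor of 2.

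**Figure D2:**
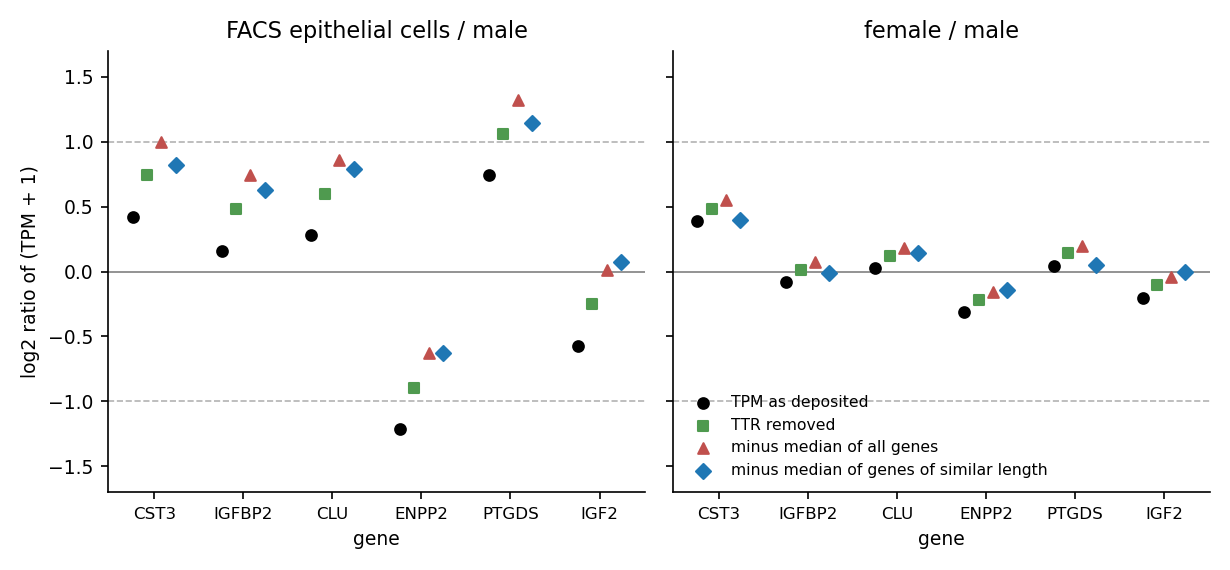
Log2 ratio of TPM plus 1 for each of the 6 genes (vertical axis) between FACS epithelial cells and male choroid plexus (left) and between female and male choroid plexus (right), with 1 library per side of each ratio and no replicates. The 4 symbols per gene stand for 4 scalings, and dashed lines mark a factor of 2. In the FACS library, PTGDS passes it upward and ENPP2 fails to pass it downward once TTR or a median is taken out. CST3 reaches it upward relative to the median of all genes only.

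Ratios between genes of the same library do not depend on how that library was scaled. Of the 15 pairs of the 6 genes, 12 kept their order by TPM in the 3 choroid plexus libraries, and the 3 that did not each held PTGDS, against CLU, ENPP2 and IGFBP2. Between the FACS and the male library, 5 of the 15 ratios differed by a factor of 2 or more, and 0 did between the female and the male library. The widest difference was in PTGDS over ENPP2, which was 0.880 in the male, 1.13 in the female and 3.41 in the FACS library, a factor of 3.87 between FACS and male. CST3 over ENPP2 was 4.74 in the male, 7.71 in the female and 14.7 in the FACS library, and its factor of 1.63 between female and male was the widest of the 15. CLU over IGFBP2 was 0.884, 0.954 and 0.961, the pair that differed least between FACS and male.

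The longer of the 6 transcripts tended to have the lower ratios, although IGF2, the longest, lay above ENPP2, and CLU above the shorter IGFBP2, in both comparisons. The effective length, the number of positions at which a fragment can start, was 513 bases for CST3 and 514 for PTGDS in the male library, 1008 for IGFBP2, 1365 for CLU, 2320 for ENPP2 and 3253 for IGF2. Spearman's rho between effective length and the log2 ratio of FACS to male was -0.83 over the 6 genes, -0.14 over the 14024 genes tested and -0.13 over the 1119 genes at 100 TPM or above in the male. For female to male it was -0.89 over the 6 genes, -0.31 over the 13869 genes tested and -0.55 over the same 1119 high genes. These are correlations across genes of the same pair of libraries, and genes are not independent replicates. Against the median of genes within 25% of its own length, the ratio of FACS to male was 1.14 for PTGDS, 0.82 for CST3, 0.79 for CLU, 0.63 for IGFBP2, 0.07 for IGF2 and -0.63 for ENPP2. On that scale the ratio of female to male was 0.40 for CST3, where 92.5% of 773 genes of similar length had a lower ratio, and it lay between -0.14 and 0.14 for the other 5. RNA integrity was not analysed here, and the part of transcript length in these ratios was not tested.

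**Figure D3:**
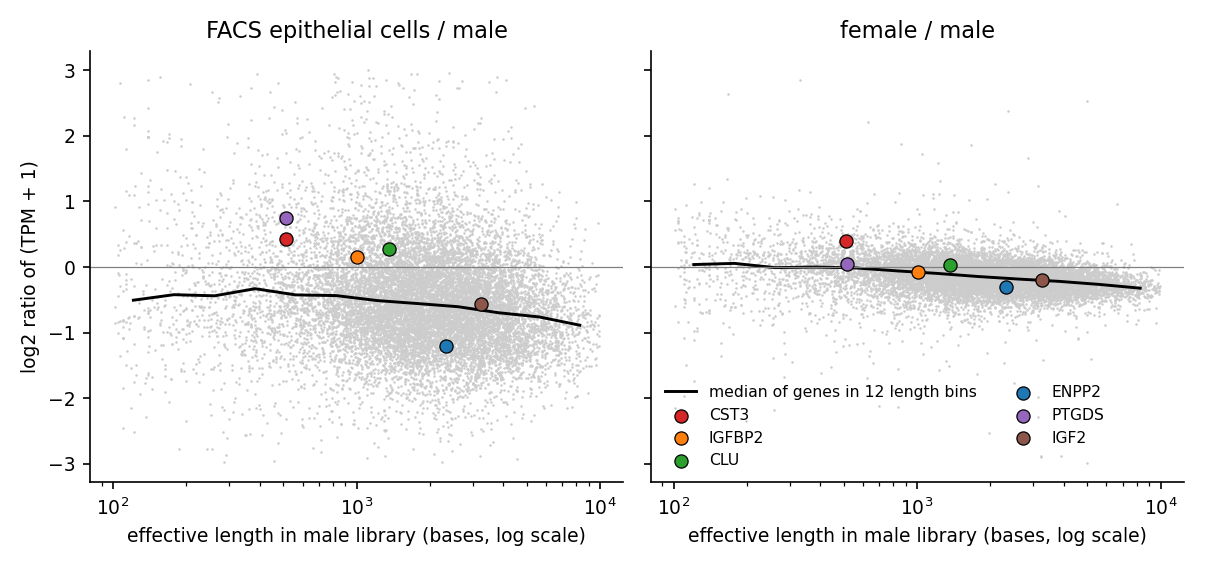
Log2 ratio of TPM plus 1 (vertical axis) against effective length in the male library in bases (horizontal axis, log scale) for FACS over male (left) and female over male (right), with each gene tested in grey, the median of the drawn genes by length as a black line and the 6 genes in colour. Genes beyond the axes are not drawn. The black line goes down with length for both comparisons beyond 1000 bases, and for FACS over male CST3, PTGDS, IGFBP2 and CLU lie above it and ENPP2 below it.

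The marker lists of the tissue's cell types were compared in the same way, since the FACS library is labelled as epithelial cells. All 12 epithelial markers were above 0 in the 3 choroid plexus libraries, and without TTR they summed to 9980 TPM in the male, 9132 in the female and 7984 in the FACS library. Their median log2 ratio of FACS to male was -0.47 as deposited and 0.11 relative to all genes. As deposited, 3 of 12 were lower by a factor of 2 or more, near the 25.5% of all genes tested. Relative to all genes 0 were lower and 1 was higher, where 6.03% of all genes tested were lower and 10.9% higher. Of 12 immune markers, 11 had a name, without PTPRC. As deposited, 8 of the 11 were higher by a factor of 2 or more in the FACS library, against 4.61% of all genes tested. Relative to all genes 10 were, against 10.9%. The list summed to 857 TPM in the male, 557 in the female and 4651 in the FACS library, with CD74 at 345, 209 and 2556 TPM. Of 15 mesenchymal markers, 11 had a name, without LUM, COL1A1, COL1A2 and COL3A1. These summed to 2222, 1957 and 2706 TPM, in which MGP had 544.3 TPM in the male and 1064.5 in the FACS library. Their median log2 ratio of FACS to male was 0.10 as deposited, with 7 above 0 and 4 below. Of 12 endothelial markers, 10 had a name, without PECAM1 and CDH5. These summed to 340, 262 and 348 TPM, with a median log2 ratio of FACS to male of 0.05, 5 above 0 and 5 below. None of the named markers of these 4 lists was at 0 in a choroid plexus library. A name required 0.5 TPM or more in a list of the paper, so values above 0 were largely given in advance. That level did not suffice for a name, since 13598 genes reached it in the male library and 2452 IDs had a name. Markers without a name were thus not shown to lie under it. Of the 1119 genes at 100 TPM or above in the male, 1106 had a name even without the mitochondrially encoded ones. Naming thus favoured genes high in the male library, the denominator of these ratios. The sorted library held markers of other cell types beside the differences in PTGDS, CST3 and ENPP2. The part of those cells in the levels of the 6 genes was not tested.

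**Figure D4:**
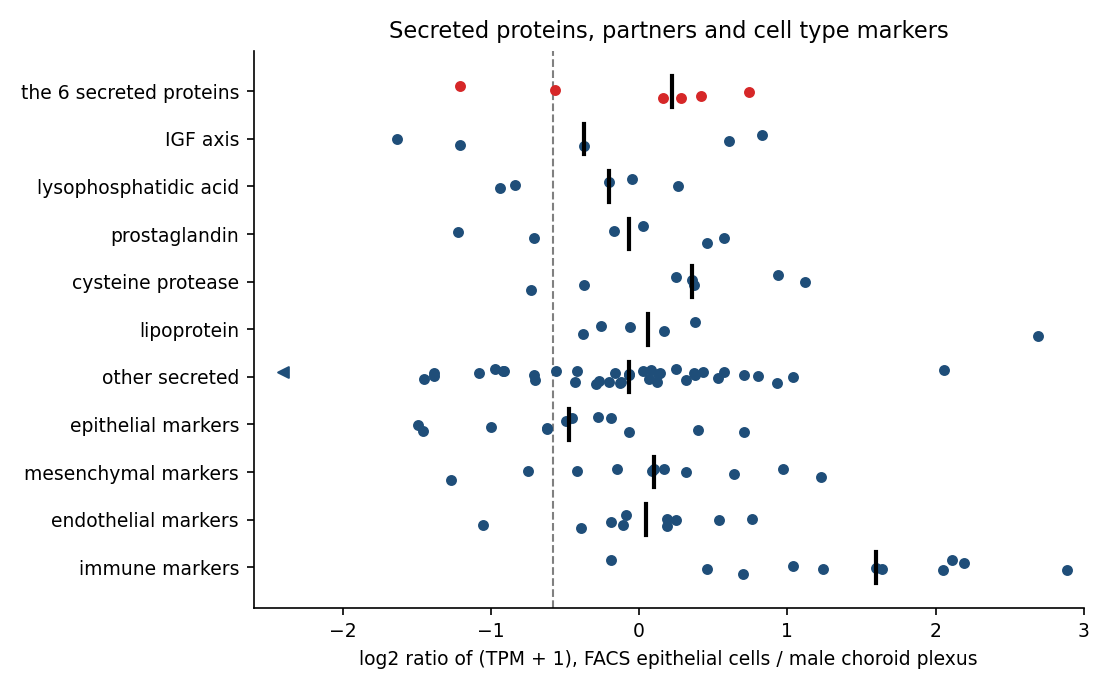
Log2 ratio of TPM plus 1 between FACS epithelial cells and male choroid plexus (horizontal axis) for the 6 secreted proteins in red and for the named genes of 10 lists in blue, with the median of each list as a black bar and the median of all genes tested, -0.58, as a dashed line. The triangle is PCSK1N, which lies beyond the axis, and the immune markers, with a median of 1.60, lie farthest to the right.

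In the proximal tubule library, CST3 was the single one of the 6 genes above 0, with 57 expected counts (95% Poisson interval 43.2 to 73.9). It had 3.09 TPM as deposited and 11.1 TPM (8.39 to 14.4) with the mitochondrially encoded genes removed, against 36462 TPM in the male choroid plexus on the same scale, a log2 ratio of -11.56. CLU, ENPP2, IGF2, IGFBP2 and PTGDS were listed at 0 there. All 6 were thus lower by a factor of 2 or more, as were 71% of the 14227 genes tested, while 12.1% were higher. The zeros of this library reached far beyond these genes, since 311 of the 1106 named genes at 100 TPM or above in the male choroid plexus, 28.1%, were listed at 0 in the tubule, among them PSAP, a lysosomal protein gene used by most cells, with 6482 TPM in the male. Of the tubule's 6274 genes above 0, 16.4% had between 40 and 60 expected counts, the range that holds CST3, against 3.72% in the male choroid plexus, and 2.65% had under 10 counts against 15.8%. No fold is therefore given for the 5 genes at 0. Of 8 proximal tubule markers 7 had a name, and with the mitochondrially encoded genes removed all 7 were higher in the tubule than in the male. As deposited they summed to 3108 TPM against 20.1 TPM, and 1 of them, SLC5A2, a glucose transporter, was then level with the male library at 6.02 against 6.18 TPM. Names came only from the paper's lists of genes past its cut-off of 0.5 TPM. SLC34A1, SLC13A1, SLC5A12, SLC7A13 and SLC22A6 lay under that cut-off in each choroid plexus library. Only their level in the tubule could give them a name, so their direction was fixed in advance. Of the cysteine protease list, 3 genes were higher there by a factor of 2 or more, CTSL with 8699 TPM, CSTB with 1894 TPM and LGMN with 855 TPM without the mitochondrially encoded genes. Another 3 were lower by that factor, with log2 ratios of -4.96 for CTSB and -1.77 for CTSC. The third, CTSZ, was listed at 0, so no ratio is given for it. CTSH had a ratio of 0.71.

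Of 49 other genes for secreted proteins, 39 had a name. The highest after TTR in the male choroid plexus were PSAP with 6482 TPM in the male, 6068 in the female and 6632 in the FACS library, TF (transferrin) with 5952, 5175 and 7449, MDK (midkine, a growth factor) with 4850, 5689 and 9226, and SOSTDC1, an antagonist of BMP and Wnt signals, with 1567, 1489 and 960. In the FACS library 2 of the 39 were higher by a factor of 2 or more, GDF15 with 92.5 TPM in the male and 388 in the FACS library and SERPINE2 with 201 and 414. Another 5 were lower, PCSK1N, TIMP3, A2M, FGF1 and MIF. Relative to all genes 8 of the 39 were higher and 1 was lower. Of all genes tested, 10.9% were higher and 6.03% lower on that scale, against 4.61 and 25.5% as deposited. PCSK1N had 1082.47 expected counts in the male and was listed at 0 in the FACS library. At a floor of 3 counts, its share of the counts would be at least 304-fold lower, as far as counting error goes. Its count in the male was not a whole number, so RSEM divided reads between this gene and others, which the floor does not cover. TIMP3 had 295 TPM in the male and 107 in the FACS library. The median of the 39 was -0.07 as deposited and 0.51 relative to all genes, beside 0.22 and 0.80 for the 6 genes. Between female and male 0 of the 39 passed a factor of 2, and the widest log2 ratios were 0.35 for IGFBPL1 and 0.26 for TTR upward and -0.47 for TIMP3 and -0.46 for TGFB2 downward. In the tubule 36 of the 39 were lower by a factor of 2 or more, beside 71% of all genes tested. Higher by that factor were 2, B2M and SELENOP, beside 12.1%. The 36 include 25 listed at 0, and zeros of this library reached far beyond these genes. The lowest of the 39 in the male, RARRES2, had 68.3 TPM, so a lower level in the tubule was partly given in advance.

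For each of the 6 genes, the named genes with the most similar pattern were found by the root mean square difference of log2 levels over the 4 libraries, each taken relative to the male library, among 2112 candidates at 10 TPM or above in the male. CLU and IGFBP2 were nearest to each other, with a difference of 0.121, followed for both by PSAP and TF. For PTGDS the nearest was MDK (0.222), followed by TF and CLU. For IGF2 it was CKB, a creatine kinase, with 0.121, then MFRP and SLC22A17, and for CST3 it was SLC22A17 (0.244), then CTSD and MFRP. For ENPP2 it was PSAP (0.636), then IGFBP2 and CKB. For a gene listed at 0 in the tubule, as 5 of the 6 genes were, the tubule term is set by the male level alone. The measure therefore picks genes of similar male level and is no likeness over the choroid plexus libraries by themselves.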

How the data were processed

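RNA of 4 pooled rat samples, 1 library per condition, was sequenced with paired-end reads of 150 bases. Alignment by the authors used STAR 2.7.2a and, as genome, Rnor_6.0 with the annotation of Ensembl release 103, and they deposited, from RSEM 1.3.3, an expected count, a TPM, an FPKM and an effective length for each gene ID. The deposited FPKM values were not used. Trimming of all libraries and strandedness are not given in the sources used here.

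Gene names came from the supplementary lists of the paper, which hold genes past its cut-off of 0.5 TPM in a listed sample. Many genes past that cut-off had no name, since 2452 IDs had one and 13598 genes reached it in the male library. Of the 32883 IDs, 0 matched the RefSeq table's Ensembl column, so all 6 genes were matched to RefSeq by symbol. A pseudocount of 1 was added to TPM before log2 ratios were taken, so changes of low genes are understated, over genes at 0.5 TPM or above in either library. For the tubule, the 13 mitochondrially encoded genes were removed and TPM rescaled. A factor of 2 was the call, with no test, since each condition has 1 library. Shares of counts have 95% Wilson intervals, and the floor is 3 counts, 1.06e-05 to 1.26e-05% of a library. Python 3.11.15, numpy 2.4.6, pandas 2.3.3, scipy 1.17.1 and matplotlib 3.10.9 were used, and the steps were tested on simulated data.

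The 6 genes and the 12 gene lists, which include them, were chosen with earlier results of these data known. Named were the 6 genes, the genes of the partner lists (the highest by male TPM and those past a factor of 2 first), the 5 highest and the 2 largest ratios each way of the other secreted proteins, the 3 nearest in pattern and cell markers. TIMP3, GDF15 and SERPINE2 fall under that rule, and A2M, FGF1 and MIF were named after their values were seen, to account for a count. Alternatives were other pseudocounts, cut-offs and scalings.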

Additional observations from a re-analysis of the deposited data

How the results depend on the processing

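With the mitochondrially encoded genes removed, the 6 genes made up 7.08% of the TPM in the male, 7.84% in the female, 8.3% in the FACS and 0.00111% in the tubule library. With TTR removed they made up 8.52, 10.3 and 12.8% in the 3 choroid plexus libraries, and as a share of expected counts, which is not per length, 5.54, 6.13, 6.7 and 0.000227% in the 4 libraries. Between FACS and male, the count higher by a factor of 2 went from 0 to 1 with TTR removed, to 2 relative to the median of all genes, to 1 with expected counts scaled to an equal library total and to 1 relative to genes of similar length, and the count lower went from 1 to 0 under each of these 4. Relative to the median of all genes, the shares of all genes tested moved as well, from 4.61 to 10.9% higher and from 25.5 to 6.03% lower. They also moved under the other 3 scalings. The shares higher and lower were 6.95 and 15.7% with TTR removed, and 6.31 and 15.1% with expected counts scaled to an equal total. Relative to genes of similar length they were 10.3 and 6.1%. The scaling by similar length was chosen after seeing the data. Pseudocounts of 0.1 and 0.5 and other cut-offs moved neither count. IGF2 ranged from -0.60 to 0.07 over 10 alternatives and had the other sign in 2 of them. Between female and male, CLU ranged from -0.01 to 0.18 with the other sign in 1, and IGFBP2 from -0.12 to 0.07 with the other sign in 3. No replicate could be left out. No paired analysis was possible because each condition is 1 pooled library, also where the male choroid plexus and the tubules came from the same rats. The spread between pools of rats is unknown.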
